A study of Mus musculus with 6 samples.

Results

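The 43 genes described here carry long-chain fatty acids into the muscle fibre, release them from stored triglyceride, bring them into the mitochondrion and break them down there. They were taken by gene name from the pathway, with no measured value in the rule, although earlier results of these data were known when the list was drawn up. All 43 were found among the 53084 rows of the count table, and all 43 were among the 15075 genes with enough counts to be tested. They were ordered by step into 6 genes of uptake, 5 of activation, 9 of lipolysis and lipid droplets, 5 of the carnitine shuttle, 12 of mitochondrial beta-oxidation, 3 of electron transfer, and 3 thioesterases and malonyl-CoA decarboxylase.

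RNA was sequenced from the muscle of 3 wild-type mice (*Tarsl2*+/+, WT 583, 584 and 595) and 3 *Tarsl2* knockout mice (*Tarsl2*-/-, KO 588, 589 and 591), all male, 6 weeks old and of strain C57BL/6 by the labels, with 1 library per mouse. The KO allele lacks exon 3 of *Tarsl2*, a paralog of cytosolic threonyl-tRNA synthetase, after CRISPR/Cas9 cutting in zygotes of C57BL/6J mice. The deletion is carried in every tissue and is not specific to muscle. Which muscle was taken, and whether the mice had been fed or fasted, is not given in the sources used here. *Tarsl2* had 456, 605 and 464 counts in the WT mice and 40, 30 and 37 in the KO mice, which fits the labels. Library totals were between 16176591 and 20123767 counts, and 3 counts corresponded to 0.149 to 0.185 CPM, where CPM are counts scaled to library size after TMM normalization. Fibre markers were abundant (*Mylpf*, a fast light chain, at 35769 ± 1593 CPM in WT, SD, n = 3), whereas 10 retinal markers, examined because the sample records name a retinal extraction, had at most 7 counts in a library, with 4 of them at 0. Of 5 cardiac markers, 2 were at 0 and the others had at most 16 counts.

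Fatty acids reach muscle from circulating lipoproteins and albumin or from droplets inside the fibre. They are bound to coenzyme A, exchanged onto carnitine to cross the inner mitochondrial membrane, and shortened in the matrix by repeated cycles of dehydrogenation, hydration, a second dehydrogenation and thiolysis. The electrons of the first dehydrogenation pass through electron-transferring flavoprotein to the respiratory chain, and malonyl-CoA holds the entry step back.

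The comparison of KO with WT asked which of these steps differed in transcript level with the loss of *Tarsl2*. Of the 43 genes, 5 were higher in KO by edgeR's quasi-likelihood test, with p adjusted over all tested genes by the Benjamini-Hochberg method and a threshold of 0.05 (11.6%, against 0.896% of all tested genes), and 1 was lower (all tested genes: 1.37%). The higher genes were *Angptl4*, an inhibitor of lipoprotein lipase, *Plin5*, a droplet coat protein of oxidative tissue, *Acadvl* and *Eci2* of beta-oxidation, and *Mlycd*, malonyl-CoA decarboxylase. The lower gene was *Acsl3*, a long-chain acyl-CoA synthetase of the endoplasmic reticulum and droplets. The log2 fold change (KO over WT) was above 0 for 37 of the 43 (86.05%), against 50.4% of all tested genes, and its median was 0.32, against 0.00253 over all tested genes. At an unadjusted p under 0.05, 20 genes were higher (all tested genes: 9.57%) and 2 lower (10.2%). The 3 KO mice were all above the 3 WT mice for 17 genes (39.5%; all tested genes: 12.6%) and all below for 3 (all tested genes: 12%). For a single gene, an exact two-sided permutation test of 3 mice against 3 cannot give a p below 0.1, which is the value these non-overlapping genes had. The count of higher genes was 1 without WT 583 or without WT 595, 8 without WT 584, and 2 without KO 589 or without KO 591, and the 1 lower gene was lost without any of WT 583, WT 595, KO 589 and KO 591. DESeq2 called 13 higher (all tested genes: 2.06%) and *Acsl3* lower (all tested genes: 2.71%). The shares of all tested genes given here also stand beside the counts of each step and list below.

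**Figure D1:**
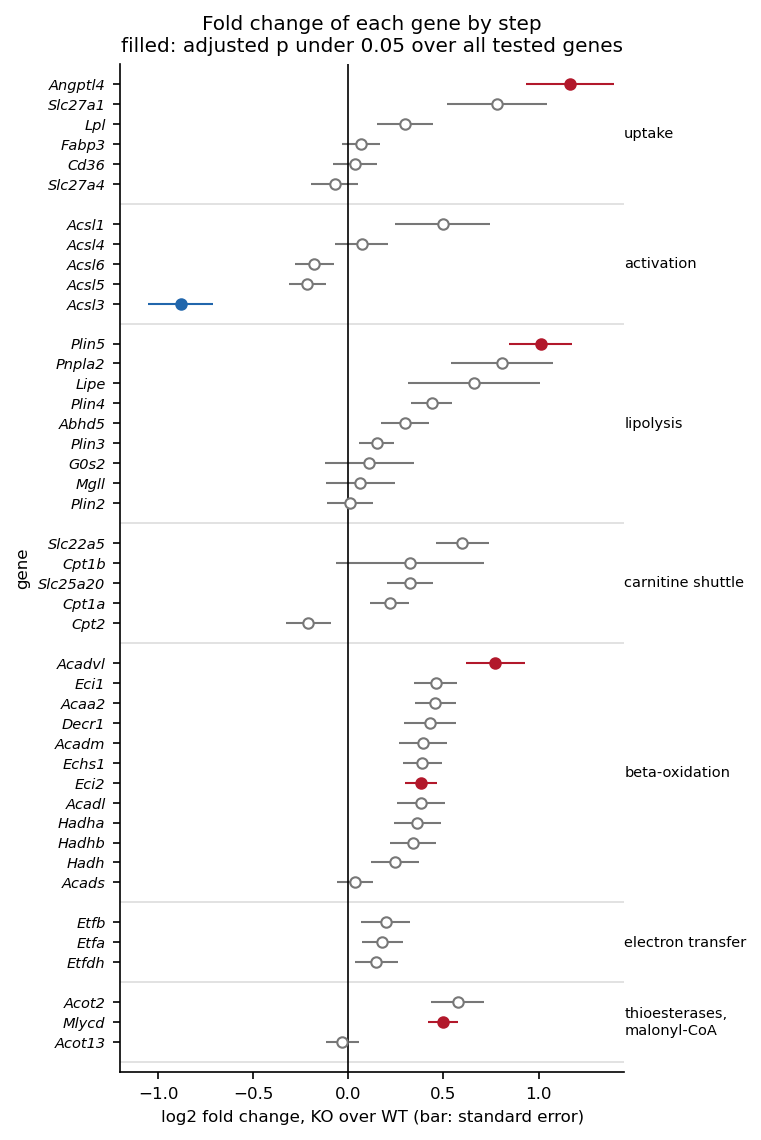
Log2 fold change (KO over WT, x axis) of each of the 43 genes, ordered by step, with its standard error as a bar. Filled points are the 5 genes higher (red) and the 1 lower (blue) past the threshold, and all 12 beta-oxidation genes lie to the right of 0.

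KO 589 stood apart from the other KO mice across the pathway. Its library is also titled differently in the labels, KOT1-589 where the others are KO1-588 and KO1-591, with no meaning given for the prefix. It had the highest level of the 6 mice for 33 of the 43 genes, and for 10 of them it was the only KO mouse above all WT mice: *Cd36*, *Acsl1*, *Lipe*, *Mgll*, *G0s2*, *Plin2*, *Cpt1b*, *Acads*, *Hadh* and *Etfb*. Without it, 31 of 43 log2 fold changes were above 0, their median was 0.13, and 2 genes were higher (*Plin5* and *Mlycd*). A list of 13 adipocyte markers that holds none of the 43 genes was also highest in this mouse: its summed level was 5030, 7209 and 4223 CPM in WT 583, 584 and 595 and 5190, 10894 and 5496 CPM in KO 588, 589 and 591. Of these 13 markers, 11 had a log2 fold change above 0 (median 0.43), none passed edgeR's test (3 higher and 1 lower at an unadjusted p under 0.05, 0 by DESeq2) and none was at 0. *Adipoq*, which encodes adiponectin, was at 114, 195 and 102 CPM in WT and 119, 313 and 121 CPM in KO. Brown adipocyte markers varied within the genotypes: *Ucp1*, their defining gene, was at 62.1, 58.1 and 3.88 CPM in WT and 15.5, 57.0 and 36.5 CPM in KO. Relative to the mean of WT on the log2 scale, the median of 5 such genes ran from -1.29 in WT 595 to 0.48 in WT 584 and from -0.13 to 0.02 in KO, and their summed level (1861 to 2250 CPM in WT, 1944 to 2218 in KO) was mostly *Cox8b*, which muscle fibres also express. Slow fibre markers were high in KO 589, with a summed level over 10 genes of 971, 1042 and 1664 CPM in WT and 1302, 2014 and 1425 CPM in KO, 10 of 10 above 0, none past edgeR's test (4 higher at an unadjusted p under 0.05, 0 by DESeq2) and none at 0. Of 9 fast fibre markers tested, 6 were above 0 and 2 were higher by edgeR, *Actn3* (log2 fold change 0.69, adjusted p = 0.00807) and *Myh1* (0.59, adjusted p = 0.0150). Below 0 were *Pvalb* (-0.23, with all KO mice below all WT mice), *Casq1* (-0.09) and *Myh4* (-0.03). The summed level of the 10 listed fast markers overlapped, at 99119 to 108546 CPM in WT and 102618 to 114676 CPM in KO. A comparison chosen after seeing the data left out WT 584 and KO 589, the mouse of each genotype with most adipocyte marker RNA. There, 34 of 43 log2 fold changes were above 0 with a median of 0.22. In it, 4 genes were higher (*Pnpla2*, *Plin5*, *Acadvl* and *Mlycd*) and *Acsl3* was lower. Of all 15293 genes tested there, 123 were higher and 188 lower. WT 584 was also the WT mouse with the highest median over the 43 genes (0.10 relative to the WT mean, against -0.04 and -0.08). Leaving it out therefore lowers the WT level. The part of adipocytes or fibre types in the levels of the 43 genes was not tested, and in bulk muscle fewer cells of a type and less RNA per cell cannot be told apart.

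**Figure D2:**
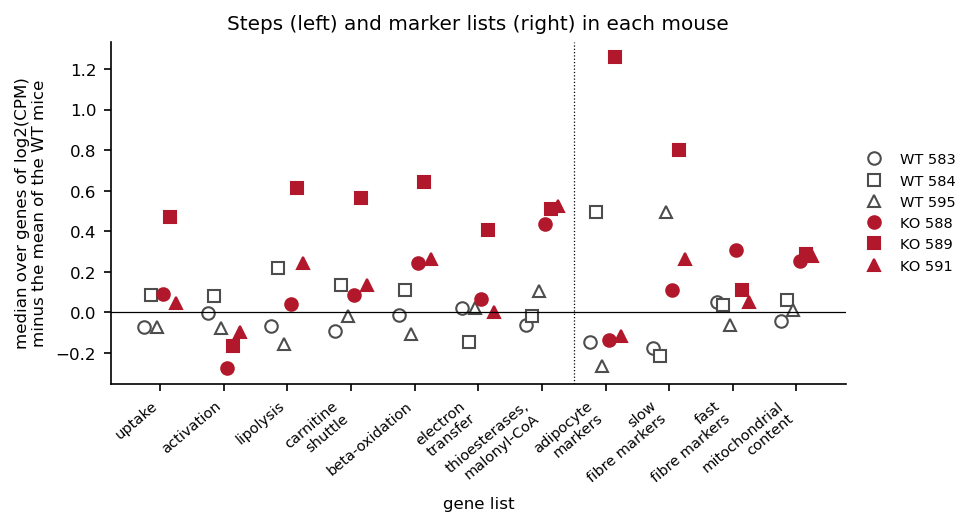
For each mouse, the median over the genes of a list of log2(CPM) minus the mean of the 3 WT mice (y axis), for the 7 steps to the left of the dotted line and 4 marker lists to its right. KO 589 (filled square) is the highest mouse in 5 of the 7 steps and reaches 1.26 for the adipocyte markers, where KO 588 and KO 591 lie at -0.14 and -0.11.

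Uptake brings fatty acids to and across the fibre membrane, and *Angptl4* was the 1 gene of its 6 to pass the test. The median of the 6 was 0.18, and 0.07 without KO 589. It was at 20.4, 16.5 and 10.8 CPM in WT 583, 584 and 595 and at 29.8, 47.9 and 29.1 CPM in KO 588, 589 and 591. All KO mice lay above all WT mice, with the highest level in KO 589. The log2 fold change was 1.16 (standard error, SE, 0.23, adjusted p = 0.0268 by edgeR). It lost the call without WT 595 (0.94, adjusted p = 0.0777) or KO 589 (0.90, adjusted p = 0.0712). *Lpl*, the lipase that this protein inhibits, was at 692, 721 and 646 CPM in WT and at 730.3, 1083 and 719 CPM in KO, where KO 588 and KO 591 lay near WT 584 and KO 589 was far above. Its log2 fold change was 0.30 (SE 0.15, adjusted p = 0.293) and fell to 0.08 without KO 589. *Slc27a1*, a fatty acid transport protein, had 0.78 (SE 0.26, adjusted p = 0.134) and was 0.35 without KO 589, while its relative *Slc27a4* was at 12.0, 14.8 and 11.8 CPM in WT and 12.6, 11.2 and 12.9 CPM in KO, with overlapping genotypes (log2 fold change -0.07, SE 0.12).

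*Fabp3* and *Cd36*, the uptake genes with the highest levels per length among the 6, did not pass the test. *Fabp3*, the cytosolic binding protein of muscle, had the highest level per length of the 43 genes, 910.4 CPM per kb in WT and 954 in KO. In the mice it was at 681, 733 and 833 CPM in WT and 794, 801 and 762 CPM in KO. The KO values lay inside the WT range, with a log2 fold change of 0.07 (SE 0.10, adjusted p = 0.757). For *Cd36*, the membrane translocase, the log2 fold change was 0.03 (SE 0.12, adjusted p = 0.915), with WT between 277 and 303 CPM and KO between 256 and 350.0 CPM, and it was -0.10 without KO 589. Of the length-100 sequences of *Fabp3* transcripts, 21.7% also occur in its pseudogene *Fabp3-ps1*, so that its count depends on how shared reads were assigned.

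**Figure D3:**
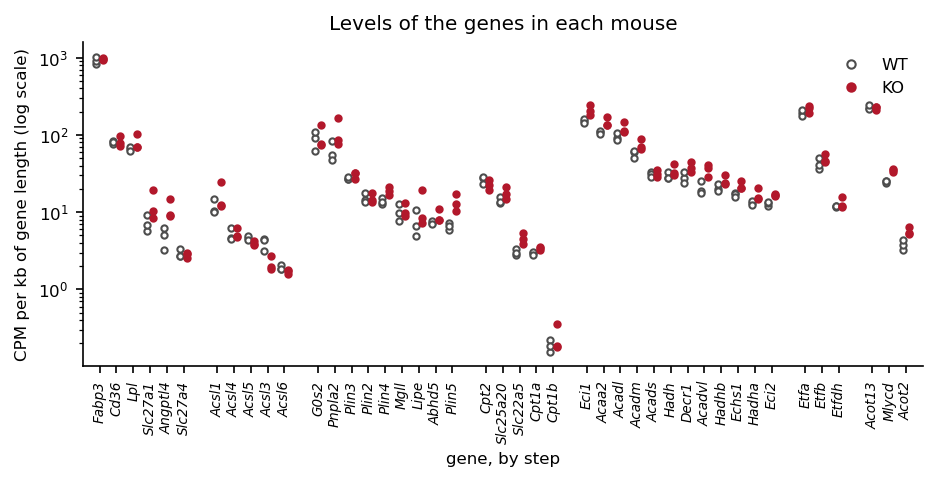
Level of each gene in each mouse as CPM per kb of gene length (y axis, log scale), grouped by step with the most abundant gene of each step first, for 3 WT (open) and 3 KO (filled) mice. *Fabp3* lies highest, with a WT mean of 910.4, and *Cpt1b* lowest, with a WT mean of 0.188. The value of *Cpt1b* cannot be read as its level, because its exon bases are shared with another gene.

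Activation to acyl-CoA was the 1 step whose median lay below 0 (-0.18 over 5 genes). *Acsl3* was at 19.5, 13.8 and 19.1 CPM in WT and at 11.8, 8.61 and 8.02 CPM in KO. All KO mice lay below all WT mice, and the log2 fold change was -0.88 (SE 0.17, adjusted p = 0.0254). It stayed between -1.07 and -0.77 with each mouse left out in turn, although the adjusted p was then above 0.05 without WT 583 (0.112), WT 595 (0.0946), KO 589 (0.0878) or KO 591 (0.0914). *Acsl5* and *Acsl6* were also lower in every KO mouse than in every WT mouse, by smaller amounts that did not pass the test (log2 fold changes -0.22 and -0.18, SE 0.10 for both). The muscle and fat isoform *Acsl1*, the most abundant of the 5 per length (11.7 CPM per kb in WT), was at 109, 154 and 104 CPM in WT and 129.6, 261 and 127 CPM in KO, where KO 588 and KO 591 lay within the WT range. Its log2 fold change of 0.50 (SE 0.25, adjusted p = 0.301) was 0.07 without KO 589. *Acsl4*, which prefers arachidonate, had a log2 fold change of 0.07 (SE 0.14), between -0.06 and 0.23 with each mouse left out. Markers of macrophages and other leukocytes were lower in KO over the same mice. Their summed level over 10 genes was 1121 to 1316 CPM in WT and 623 to 788 CPM in KO. The log2 fold change was above 0 for 0 of 10 (all tested genes: 50.4%). Past the test, 4 were lower (all tested genes: 1.37%), and none lacked counts. Erythrocyte markers were lower as well, with a summed level over 6 genes of 4748 to 10392 CPM in WT and 4166 to 4536 CPM in KO, 0 of 6 above 0 (median -0.86), none past edgeR's test (5 lower at an unadjusted p under 0.05, 1 by DESeq2) and none at 0. The part of these cells in the lower synthetase levels, or in other values given here, was not tested.

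All 9 genes of lipolysis and the lipid droplet had a log2 fold change above 0 (median 0.30), and *Plin5*, which holds lipolysis at the surface of mitochondria-bound droplets, passed the test. It was at 12.1, 15.3 and 13.8 CPM in WT and at 21.5, 35.3 and 26.4 CPM in KO, so that the lowest KO mouse was well above the highest WT mouse. The log2 fold change was 1.01 (SE 0.17, adjusted p = 0.0134). It remained past the threshold without KO 589 (0.81) and lost the call without WT 583 (0.92, adjusted p = 0.0704) or WT 595 (1.01, adjusted p = 0.0541). The other droplet proteins differed less. *Plin4* had a log2 fold change of 0.44 (SE 0.11) with no overlap between genotypes, just outside the threshold (adjusted p = 0.0607). *Plin3* had 0.15 (SE 0.09). *Plin2*, the droplet coat of most tissues, was at 50.5, 61.4 and 47.5 CPM in WT and at 50.5, 61.7 and 48.2 CPM in KO, nearly the same values in both genotypes. Its log2 fold change was 0.01 (SE 0.12), and it was below 0 with upper quartile scaling (-0.01).

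The lipases were highest in KO 589, without which 6 of the 9 genes were above 0 with a median of 0.12. *Pnpla2*, which encodes adipose triglyceride lipase, was at 167, 254 and 144 CPM in WT and at 233, 496 and 260.2 CPM in KO. Only KO 589 stood far from WT 584, and the log2 fold change of 0.81 had a SE of 0.27 (adjusted p = 0.131). It was 0.39 without KO 589 and 0.67 (adjusted p = 0.0231 by edgeR) without both KO 589 and WT 584. WT 584 was the WT mouse with the most *Pnpla2*, and this comparison was chosen after seeing the data, so its call carries no weight of its own. *Lipe*, hormone-sensitive lipase, was at 38.8, 62.3 and 28.9 CPM in WT and at 42.4, 114 and 49.7 CPM in KO. Its log2 fold change of 0.66 (SE 0.35, adjusted p = 0.320) was 0.09 without KO 589, and this gene is itself an adipocyte marker. *Abhd5*, the coactivator of the first lipase, had 0.30 (SE 0.13, adjusted p = 0.221 by edgeR) with no overlap between genotypes. KO 588 and KO 591 lay just above WT 584, and the log2 fold change was 0.13 without KO 589. *Mgll*, which cleaves the last ester, had 0.06 (SE 0.18), or -0.12 without KO 589. *G0s2*, the inhibitor of the first lipase and the most abundant of the 9 per length (87.8 CPM per kb in WT), was at 78.9, 96.1 and 54.4 CPM in WT and 65.7, 117 and 65.0 CPM in KO. Its log2 fold change was 0.11 (SE 0.24), and -0.22 without KO 589.

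**Figure D4:**
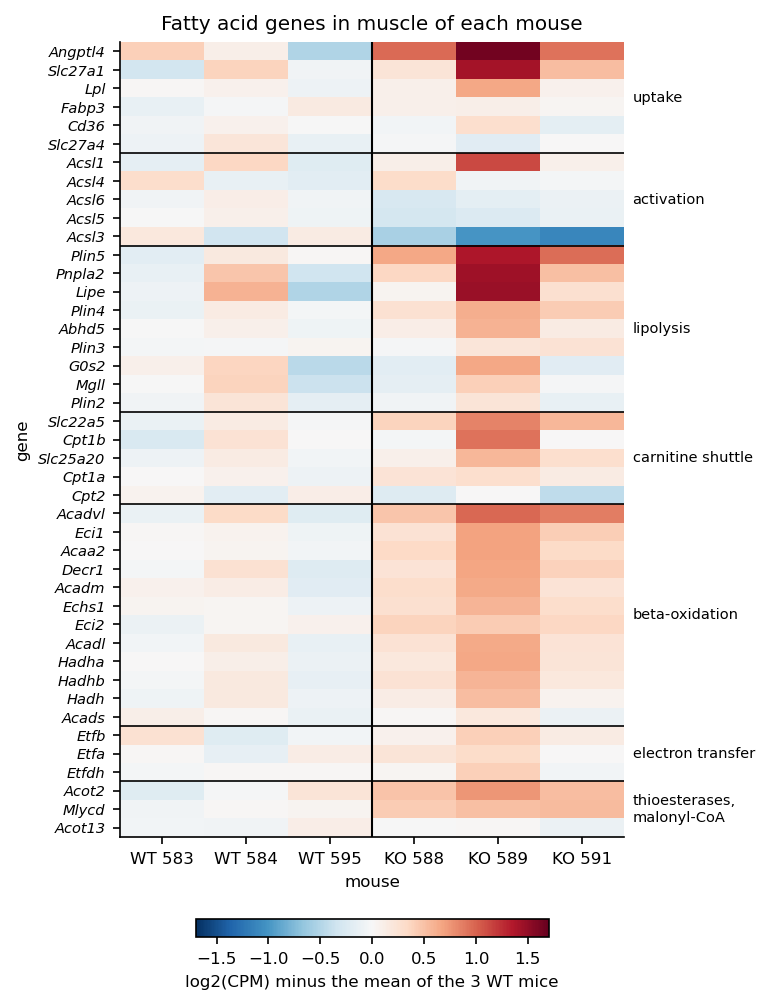
Log2(CPM) minus the mean of the 3 WT mice (colour) for the 43 genes (rows, by step) in the 6 mice (columns). The column of KO 589 is the reddest for 33 of the 43 genes, and 9 of the 12 beta-oxidation genes have all KO mice above all WT mice.

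No gene of the carnitine shuttle passed edgeR's test (2 were higher at an unadjusted p under 0.05 and 1 by DESeq2). Of its 5 genes, 4 had a log2 fold change above 0 (median 0.32, and 0.19 without KO 589). These 4 include *Cpt1b*, whose value cannot be read as its level, as described below. A filter of at least 10 counts in every library drops *Cpt1b*, and 3 of 4 were then above 0 with a median of 0.27. *Slc22a5*, the carnitine importer of the plasma membrane, came closest: it was at 8.54, 10.1 and 9.13 CPM in WT and at 12.0, 16.5 and 13.7 CPM in KO. The groups did not overlap, and the log2 fold change was 0.60 (SE 0.14, adjusted p = 0.0508). Of its length-100 sequences, 13.7% also occur in its neighbour *Slc22a21*. *Slc25a20*, the carnitine-acylcarnitine exchanger of the inner membrane, had 0.32 (SE 0.12, adjusted p = 0.166), with KO 588 below WT 584. *Cpt1a*, an outer membrane transferase, had 0.22 (SE 0.10, adjusted p = 0.281) with no overlap. The matrix transferase *Cpt2*, the most abundant of the 5 per length (26.4 CPM per kb in WT), went the other way at 65.8, 55.7 and 68.1 CPM in WT and 54.2, 63.2 and 46.7 CPM in KO, with overlap and a log2 fold change of -0.21 (SE 0.12, adjusted p = 0.360). It was -0.32 without KO 589.

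*Cpt1b*, the muscle isoform of carnitine palmitoyltransferase I, had 9 to 14 counts in the WT mice and 11 to 19 in the KO mice, although this isoform is known as the main one of adult muscle fibres. In the table it spans chr15:89416405-89425863 (GRCm38, minus strand), wholly inside the span given there to *Chkb* (chr15:89416405-89429908). In GENCODE vM21, 81.4% of its exon bases lie in exons of *Gm44502*, a gene on the same strand that the table does not list, and 91.1% of its length-100 sequences occur in that gene. *Chkb* had 411 to 526 counts per mouse (log2 fold change 0.10, SE 0.10). How reads over these shared bases were assigned is not given in the sources used here, so the value of *Cpt1b* (log2 fold change 0.32, SE 0.39) cannot be read as its level.

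The core enzymes of beta-oxidation all lay on one side of 0. All 12 genes had a log2 fold change above 0 (all tested genes: 50.4%), with a median of 0.39. At an unadjusted p under 0.05, 10 were higher (all tested genes: 9.57%). All KO mice were above all WT mice for 9 (all tested genes: 12.6%). *Acadvl* and *Eci2*, 2 of the 12, passed the test (all tested genes: 0.896%). DESeq2 called 7 of the 12 higher (all tested genes: 2.06%): *Acadm*, *Acadvl*, *Echs1*, *Eci1*, *Eci2*, *Decr1* and *Acaa2*. KO 589 was the highest of the 6 mice for 12 of 12, but without it 11 of the 12 were still above 0 with a median of 0.27. With WT 584 also left out, 11 were above 0 with a median of 0.32. Respectively, 0 and 1 of them passed edgeR's test (6 and 10 at an unadjusted p under 0.05). WT 584 had the highest median of these genes among the WT mice (0.11 relative to the WT mean, against -0.01 and -0.11). Leaving it out therefore lowers the WT level. The summed level of 12 genes of mitochondrial content outside fatty acid oxidation was higher in KO over the same mice. It was 9839, 9765 and 10464 CPM in WT and 11092, 11359 and 11368 CPM in KO. Of the 12, 10 were above 0 (median 0.27), 1 passed the test and none was at 0. That 1 was *Atp5b*, with a mean of 1658 CPM in WT and 2389 CPM in KO. *Cox4i1*, the most abundant of the 12, and *Atp5a1* were below 0 (log2 fold changes -0.02 and -0.06). Skeletal muscle markers were higher as well. Their summed level over 10 genes was 78454 to 82724 CPM in WT and 86834 to 93694 CPM in KO, and 4 were higher past the test (all tested genes: 0.896%). The relation of these lists to the beta-oxidation genes was not tested.

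The first reaction is divided by chain length among 4 acyl-CoA dehydrogenases. *Acadvl*, for very long chains, was at 50.7, 68.6 and 47.5 CPM in WT and at 76.0, 108 and 100.4 CPM in KO. The KO mice were all above the WT mice, with WT 584 the nearest, and the log2 fold change was 0.77 (SE 0.16, adjusted p = 0.0285). Without WT 583, WT 595, KO 589 or KO 591 it lay between 0.67 and 0.73 with adjusted p from 0.0959 to 0.134. *Acadl* (long chains) and *Acadm* (medium chains) had 0.38 and 0.39 (SE 0.13 for both), each with no overlap and each short of the threshold (adjusted p = 0.131 and 0.121). *Acads*, for short chains, was at 74.4, 70.5 and 64.1 CPM in WT and at 70.5, 78.7 and 65.0 CPM in KO, overlapping, with KO 589 alone above WT and a log2 fold change of 0.03 (SE 0.10), and -0.04 without KO 589. Whether these 4 genes differed from each other was not tested. On the genome, 42.9% of the exon bases of *Acadvl* (chr11:70010183-70015411, minus strand) lie opposite exons of *Dvl2*, whose own log2 fold change was -0.03 (SE 0.19).

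The next reactions are carried by the trifunctional protein for long chains and by single enzymes for shorter ones. *Hadha* and *Hadhb*, its 2 subunits, had log2 fold changes of 0.36 (SE 0.13) and 0.34 (SE 0.12), with no overlap between genotypes for either (adjusted p = 0.142 and 0.155). *Echs1*, the short-chain hydratase, had 0.39 (SE 0.10, adjusted p = 0.0716), *Hadh*, the short-chain hydroxyacyl dehydrogenase, 0.25 (SE 0.13, adjusted p = 0.313), and *Acaa2*, the thiolase, 0.46 (SE 0.11, adjusted p = 0.0529). *Acaa2* was at 164, 168 and 157 CPM in WT and at 206, 261 and 204 CPM in KO, a narrow WT range with every KO mouse above it.

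Unsaturated chains need auxiliary isomerases and a reductase. *Eci2*, an enoyl-CoA isomerase, was at 65.9, 72.3 and 74.3 CPM in WT and at 91.7, 95.4 and 89.9 CPM in KO. Here KO 589 lay close to the other KO mice, and the log2 fold change was 0.38 (SE 0.08, adjusted p = 0.0399), between 0.33 and 0.42 with each mouse left out in turn. It nevertheless lost the call in 5 of these 6 comparisons, without WT 583 (adjusted p = 0.167), WT 595 (0.0803), KO 588 (0.0857), KO 589 (0.127) or KO 591 (0.0937). *Eci1*, its relative, was at 167, 173 and 157 CPM in WT and at 196, 265 and 222 CPM in KO. The groups did not overlap (log2 fold change 0.46, SE 0.11, adjusted p = 0.0597). By the deposited gene length of 1091 bases it was the most abundant of the 12 per length (152 CPM per kb in WT). GENCODE vM21 gives it 2127 exonic bases, so this rank depends on the length used. *Decr1*, dienoyl-CoA reductase, had 0.43 (SE 0.14, adjusted p = 0.119), with KO 588 just below WT 584.

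The 3 genes of electron transfer had log2 fold changes between 0.15 and 0.20, none past edgeR's test (0 at an unadjusted p under 0.05 and 0 by DESeq2) and all with overlapping genotypes. *Etfa*, the alpha subunit of electron-transferring flavoprotein and the most abundant of the 3 per length (192 CPM per kb in WT), was at 356, 318 and 384 CPM in WT and at 408, 438 and 352 CPM in KO. *Etfb*, the beta subunit, was at 58.8, 42.5 and 47.4 CPM in WT and at 51.5, 65.0 and 53.9 CPM in KO, and *Etfdh*, which passes the electrons to ubiquinone, at 86.4, 89.6 and 90.1 CPM in WT and at 91.0, 118 and 86.2 CPM in KO. In each case KO 589 was highest and another KO mouse lay within or below the WT range. Their median of 0.18 was 0.01 without WT 584 and KO 589. Of the exon bases of *Etfb*, 58.2% are shared with other genes on its strand, which had 1 count in all libraries together. Of its length-100 sequences, 65.2% also occur in 1 of these, *Gm45233*. Their low count does not show that *Etfb* kept the shared reads. How such reads were assigned is not given in the sources used here, so the level of *Etfb* depends on it.

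The last 3 genes act on acyl-CoA and malonyl-CoA levels, and *Mlycd* had the lowest adjusted p of the 43. Its product removes malonyl-CoA, the inhibitor of carnitine palmitoyltransferase I. It was at 70.0, 74.1 and 75.2 CPM in WT and at 99.0, 104 and 107 CPM in KO, with a spread of a few CPM within each genotype and KO 589 between the other KO mice. The log2 fold change was 0.50 (SE 0.08, adjusted p = 0.0124) and stayed between 0.46 and 0.53 with each mouse left out in turn, with the call lost without WT 583 (adjusted p = 0.0745) or KO 591 (adjusted p = 0.0565). *Acot2*, a mitochondrial thioesterase, was at 7.19, 8.18 and 9.66 CPM in WT and at 11.6, 13.9 and 11.9 CPM in KO, without overlap (log2 fold change 0.57, SE 0.14, adjusted p = 0.0579). It shares 17.1% of its length-100 sequences with *Acot1*. *Acot13*, the most abundant of the 3 per length (228 CPM per kb in WT), was at 164, 162 and 182 CPM in WT and at 169, 171 and 158 CPM in KO, with a log2 fold change of -0.03 (SE 0.09).

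Other genes of the same pathways were listed for comparison. Of these 72 genes, 61 were tested, 50 of these had a log2 fold change above 0 (median 0.18), 2 were higher past the threshold and none was lower by edgeR (at an unadjusted p under 0.05, 13 were higher and 1 lower, and DESeq2 called 0 lower). The 2 were *Gpam*, the first acyltransferase of triglyceride synthesis (log2 fold change 0.78, SE 0.16, adjusted p = 0.0347), and *Fitm2*, which acts in droplet formation (0.42, SE 0.09, adjusted p = 0.0438). *Gpam* was at 14.97, 21.4 and 15.96 CPM in WT and at 23.2, 34.2 and 32.6 CPM in KO, and *Fitm2* at 48.8, 52.5 and 49.5 CPM in WT and at 63.2, 75.8 and 63.3 CPM in KO, both without overlap. This count of 2 was 0 without any of WT 583, WT 595, KO 589 and KO 591, 1 without KO 588, 3 without WT 584 and 5 by DESeq2. Relative to the WT mean, the median of the tested genes of this list was 0.07, 0.48 and 0.06 in KO 588, 589 and 591. It was -0.02, 0.10 and -0.08 in WT 583, 584 and 595, so KO 588 and KO 591 lay below WT 584. The list shares *Fabp4*, *Plin1* and *Cidec* with the adipocyte markers and *Cidea* with the brown adipocyte markers. Of 17 regulators of these genes, 14 had a log2 fold change above 0 (all tested genes: 50.4%), with a median of 0.21. By edgeR 2 were higher (all tested genes: 0.896%) and by DESeq2 5 (2.06%). At an unadjusted p under 0.05, 6 were higher (all tested genes: 9.57%). *Ppara*, a nuclear receptor for fatty acids, was at 13, 23 and 23 counts in WT and 57, 65 and 52 counts in KO (log2 fold change 1.59, adjusted p = 0.0180), and the coactivator *Ppargc1b* had 1.10 (adjusted p = 0.0370). Short of the threshold and without overlap were *Ppargc1a* (0.58, adjusted p = 0.0607), *Rxrb* (0.31, adjusted p = 0.0625), *Esrra* (0.35, adjusted p = 0.0678) and the receptor *Ppard* (0.36, adjusted p = 0.102), whereas *Rxra* (-0.01), *Foxo1* (-0.02) and *Pparg* (0.11) had overlapping genotypes.

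Promoter sequences are shown for 3 of the genes past the test and for the *Hadha* and *Hadhb* pair, which is transcribed divergently. Receptors of the *Ppara* family bind as dimers to 2 copies of AGGTCA or like letters. RefSeq promoters (GRCm38.p6, 250 bases before to 50 after the start site) were matched for 37 of the 43 genes. *Lpl*, *Decr1*, *Angptl4*, *Acaa2*, *Cpt1b* and *Acot13* had no entry. AGGTCA on either strand was in the window of 9 of the 37 (24.3%): *Abhd5*, *Acadm*, *Acadvl*, *Acsl6*, *Cd36*, *Cpt1a*, *Echs1*, *Plin2* and *Plin5*. Over all 27025 genes with a window the share was 18.1%. A direct repeat of these letters with 1 base between was in 0 of the 37 and in 13 of all genes (0.0481%). Of the 9 genes that held AGGTCA, *Plin5* and *Acadvl* passed the test, *Plin2* differed least of the 43 and *Acsl6* was among the genes below 0. In the *Plin5* (chr17:56117499-56117798, minus strand) and *Acadvl* (chr11:70015379-70015678, minus strand) windows the capitals mark AGGTCA, which starts 170 and 87 bases before the start site. The *Mlycd* window (chr8:119394644-119394943, plus strand) holds none. The windows of *Eci2* and *Acsl3*, which also passed the test and are not shown, hold none either. In the *Hadhb* window (chr5:30155003-30155302, plus strand) the capitals mark the 228 bases that it shares with the window of *Hadha* (chr5:30154931-30155230, minus strand). The RefSeq start sites of these windows lie 273 bases apart. In the deposited coordinates *Hadha* starts at 30155162 and *Hadhb* at 30155248, so the distance depends on the start site taken.
Plin5: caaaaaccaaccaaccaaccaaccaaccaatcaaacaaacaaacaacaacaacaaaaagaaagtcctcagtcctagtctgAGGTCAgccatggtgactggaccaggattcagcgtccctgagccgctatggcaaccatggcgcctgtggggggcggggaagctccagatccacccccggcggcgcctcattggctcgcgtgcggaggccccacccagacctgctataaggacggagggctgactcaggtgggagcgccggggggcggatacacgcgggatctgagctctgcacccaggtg
Acadvl: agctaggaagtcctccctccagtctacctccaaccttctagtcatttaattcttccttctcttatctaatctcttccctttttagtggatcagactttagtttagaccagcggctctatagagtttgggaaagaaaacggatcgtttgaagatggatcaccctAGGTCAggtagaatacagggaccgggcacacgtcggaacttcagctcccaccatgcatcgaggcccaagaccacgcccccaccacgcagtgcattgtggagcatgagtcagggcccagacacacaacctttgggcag
Mlycd: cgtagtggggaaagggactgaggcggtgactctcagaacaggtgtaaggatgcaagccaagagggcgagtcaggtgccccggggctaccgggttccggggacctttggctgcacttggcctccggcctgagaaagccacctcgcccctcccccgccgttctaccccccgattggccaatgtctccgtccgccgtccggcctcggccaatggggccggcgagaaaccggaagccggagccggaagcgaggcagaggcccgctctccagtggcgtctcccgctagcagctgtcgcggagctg
Hadhb: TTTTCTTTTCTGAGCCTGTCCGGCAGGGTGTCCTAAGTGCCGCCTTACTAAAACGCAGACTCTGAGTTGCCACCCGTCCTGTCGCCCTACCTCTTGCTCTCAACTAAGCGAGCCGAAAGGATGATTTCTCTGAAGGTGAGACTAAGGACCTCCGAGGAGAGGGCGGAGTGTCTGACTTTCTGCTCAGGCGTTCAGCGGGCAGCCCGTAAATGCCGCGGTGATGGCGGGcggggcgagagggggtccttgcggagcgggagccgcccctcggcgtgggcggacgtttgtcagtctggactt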

How the data were processed

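RNA-seq libraries from muscle of 3 WT and 3 KO mice, 1 per mouse, were grouped by the genotype in the sample records. The authors deposited unnormalized read counts per gene with gene coordinates on GRCm38. The study's methods name a stranded poly(A) library, paired-end reads and HISAT2 with mm10, whereas the submitters' processing notes list Bowtie 0.12.2 and mm8. The counting tool and its use of strand are not given in the sources used here, which bears on overlapping genes. Rows without a gene name (448) took 0.114% to 0.128% of counts. They stayed in the filtering, scaling and tests and were left out only where genes were looked up by name.

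Genes were filtered with filterByExpr (minimum count 10, total 15) and tested with edgeR 4.0.16 in R 4.3.3 (TMM, glmQLFit and glmQLFTest, genotype only), with adjustment over all 15075 genes. The standard error is the log2 fold change over the square root of F. The code was tested on simulated data. Alternatives were DESeq2 1.42.0, limma-voom (limma 3.58.1), RLE and upper quartile scaling, 2 other filters, and each mouse left out. Exon overlaps and shared 100-base sequences came from GENCODE vM21. Every pair of libraries of one genotype differed by more than sampling noise (chi-square of 13.1 or more per gene). Since separate housing or litters are not stated, p-values measure the spread between these mice only.

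The 43 genes, the other lists and the tests were chosen with earlier results of these data known. Values per mouse are given for genes past the threshold and, in each step, for those with the highest and lowest log2 fold change and the highest level per length. The other genes with values per mouse (*Lpl*, *Pnpla2*, *Lipe* and *Acaa2*), and the regulators named beside *Ppara*, *Ppargc1b* and *Ppard*, were picked after their values were seen.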

Additional observations from a re-analysis of the deposited data

How the results depend on the processing

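The median over the 43 genes was 0.13 to 0.40 with each mouse left out, with the lowest value without KO 589. The genes higher in KO numbered 13 by DESeq2, 21 without a filter on low counts, and 1 to 8 with each mouse left out. With each mouse left out, 0 to 1 of the 43 were lower. Over all tested genes, 310 were higher by DESeq2 and 611 of 25553 without the filter, against 135 of 15075 in the main fit. With each mouse left out, 31 to 242 of all tested genes were higher. Of the other pathway genes, 5 were higher by DESeq2, 16 without a filter, 1 without WT 584 and KO 589, and 0 to 3 with each mouse left out. Limma-voom, RLE and upper quartile scaling called the same 6 of the 43 genes as edgeR. Without WT 584 and KO 589 the electron transfer median was 0.0074.

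Genes near 0 changed sign: *Plin2* (-0.015 by upper quartile scaling, -0.10 to 0.13 with each mouse left out), *Acads* (-0.038 to 0.096), *Acot13* (-0.062 to 0.022), *Fabp3* (-0.00047 to 0.15), *G0s2* (-0.22 to 0.31), *Slc27a4* (-0.14 to 0.043), *Cd36* (-0.10 to 0.12), *Acsl4* (-0.057 to 0.23), *Mgll* (-0.12 to 0.28) and *Cpt1b* (-0.026 to 0.48). Without WT 584 and KO 589 together, *Acads* was -0.029, *Etfb* -0.0079, *G0s2* -0.025 and *Slc27a4* 0.10. The cause of these shifts was not tested. No paired analysis was run, because the labels give no litter or other pairing of WT with KO mice. At 9 to 19 counts, the depth behind *Cpt1b* limits its precision.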
